A study of Sus scrofa with 8 samples.

Results

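The voltage-gated ion channel genes of the pig were taken as the RefSeq protein-coding genes of the Sscrofa11.1 assembly whose symbols begin with KCN, with SCN and a number, or with CACN. The rule found 131 genes among 20674 protein-coding genes. Of these, 128 lie on chromosomes 1 to 18 and X, where 19487 protein-coding genes are annotated, and 3 on unplaced scaffolds (CACNA1B, KCNT1 and KCNT2) were not analysed here. The symbols also take in inward rectifier, tandem-pore and calcium- or sodium-activated potassium channels, some of which also respond to voltage, as the BK channel of KCNMA1 does, and the auxiliary subunits. Of the 128 genes, 56 belong by symbol to the voltage-gated potassium, sodium and calcium pore families.

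The study profiled H3K4me3, H3K27ac and the insulator protein CTCF by ChIP-seq in untreated pig embryonic fibroblasts (PEFs), with 2 replicates for each. PEFs are connective tissue cells, here obtained from Large White fetuses aged 35 days and kept in culture for 24 h, and nothing in the sources used here says whether the replicates came from separate animals. Peaks were called in each library separately, from 37932 to 81164 per library. Cells of 1 kind without treatment give no contrast, so the channel genes are described beside all protein-coding genes and no test was made.

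Channels of this group let sodium, calcium or potassium ions cross the membrane, and in neurons and muscle they open in response to voltage to form and shape the action potential. The pore is built by an alpha subunit, and beta, gamma and alpha-2-delta subunits or cytoplasmic partners set its gating and its transport to the surface. H3K4me3 marks gene starts, most often those rich in CpG, whereas H3K27ac marks starts and enhancers in active use, and starts with H3K4me3 alone are common among genes that a cell type does not use.

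Promoters of 6 channel genes are shown to give an idea of the sequences behind the classes described next: a pair with both histone marks, a pair with H3K4me3 only and a pair with no histone peak at any annotated start or in the body. Each runs from 250 bases before to 50 bases after the annotated start, 5' to 3' in the direction of the gene, from the RefSeq genome of Sscrofa11.1, with CpG dinucleotides in capitals. CACNA2D1 (chr9:97780807-97781106, plus strand) and CACNA1C (chr5:69016704-69017003, plus strand) had the strongest H3K27ac of the genes without another gene start within 1 kb. KCND2 (chr18:26624161-26624460, minus strand) and KCNC4 (chr4:109908469-109908768, minus strand) had the strongest H3K4me3 of those without H3K27ac. CACNG3 (chr3:21961142-21961441, minus strand) and CACNG1 (chr12:13462339-13462638, plus strand) had no histone peak.
CACNA2D1: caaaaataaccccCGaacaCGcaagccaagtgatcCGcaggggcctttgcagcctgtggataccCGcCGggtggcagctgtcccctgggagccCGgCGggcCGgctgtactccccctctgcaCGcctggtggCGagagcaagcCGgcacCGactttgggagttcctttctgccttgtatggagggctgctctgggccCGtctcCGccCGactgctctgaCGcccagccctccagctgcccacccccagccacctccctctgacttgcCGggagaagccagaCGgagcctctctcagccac
CACNA1C: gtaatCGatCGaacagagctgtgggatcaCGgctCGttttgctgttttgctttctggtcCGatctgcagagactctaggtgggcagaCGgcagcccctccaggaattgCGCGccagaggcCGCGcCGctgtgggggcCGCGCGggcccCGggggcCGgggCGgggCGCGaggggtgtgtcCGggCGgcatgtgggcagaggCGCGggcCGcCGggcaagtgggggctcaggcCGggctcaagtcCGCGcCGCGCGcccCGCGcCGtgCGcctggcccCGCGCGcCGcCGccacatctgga
KCND2: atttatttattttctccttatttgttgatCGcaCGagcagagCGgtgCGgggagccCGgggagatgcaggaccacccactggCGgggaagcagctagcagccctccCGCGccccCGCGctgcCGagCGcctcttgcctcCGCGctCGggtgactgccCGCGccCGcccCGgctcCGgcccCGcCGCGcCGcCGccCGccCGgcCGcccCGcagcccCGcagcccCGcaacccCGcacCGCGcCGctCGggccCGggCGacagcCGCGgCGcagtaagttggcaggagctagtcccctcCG
KCNC4: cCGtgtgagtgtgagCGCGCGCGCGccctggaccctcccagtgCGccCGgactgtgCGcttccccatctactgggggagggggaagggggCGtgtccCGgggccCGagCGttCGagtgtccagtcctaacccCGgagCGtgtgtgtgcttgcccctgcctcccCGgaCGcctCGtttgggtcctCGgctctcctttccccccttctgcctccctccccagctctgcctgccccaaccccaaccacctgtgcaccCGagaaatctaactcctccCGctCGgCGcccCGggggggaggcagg
CACNG3: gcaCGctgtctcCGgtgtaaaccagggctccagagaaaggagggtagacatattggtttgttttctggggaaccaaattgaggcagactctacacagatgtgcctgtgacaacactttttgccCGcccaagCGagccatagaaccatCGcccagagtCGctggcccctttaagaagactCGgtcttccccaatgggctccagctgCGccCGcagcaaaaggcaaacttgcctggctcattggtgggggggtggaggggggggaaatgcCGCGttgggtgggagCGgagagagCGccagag
CACNG1: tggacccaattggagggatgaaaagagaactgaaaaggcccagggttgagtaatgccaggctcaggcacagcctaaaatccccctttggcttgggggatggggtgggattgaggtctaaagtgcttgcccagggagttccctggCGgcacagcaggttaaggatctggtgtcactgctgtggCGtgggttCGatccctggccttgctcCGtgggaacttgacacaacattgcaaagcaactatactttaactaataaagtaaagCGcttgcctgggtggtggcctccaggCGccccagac
The promoters of KCND2 and CACNA1C hold 42 and 40 CpGs and look alike in this respect although only the latter carried H3K27ac. CACNG1 holds 6.

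Channel gene starts carried H3K4me3 about as often as other genes, and H3K27ac far less often. H3K4me3 lay within 1 kb of the start in both replicates in 87 of the 128 genes (68.0%), beside 68.9% of all protein-coding genes. Both marks were found in both replicates at 26 starts (20.3%, beside 58.9% of all genes), and H3K4me3 without any H3K27ac peak at 48 (37.5%, beside 8.25%). H3K27ac alone was found at 1 start, 0.781% beside 1.45%. No histone mark was found at 37 (28.9%, beside 27.5%), and the replicates disagreed at 16 (12.5%, beside 3.87%).

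For H3K27ac, the replicates lay closer to each other than to the share in all genes. Single libraries had a peak at 87 and 89 channel gene starts for H3K4me3, and at 30 and 39 for H3K27ac. Over all genes, 61.3% and 62.7% of the starts had an H3K27ac peak, beside 23.4% and 30.5% of the channel genes. Among genes with H3K4me3, both marks were present in 26 of 87 channel genes (29.9%) and in 85.5% of all genes. Most of the disagreement was about H3K27ac, since 13 of the 16 genes had H3K4me3 in both replicates, beside 339 of 755 over all genes. In 11 of the 13 H3K27ac was called in replicate 2 alone. The lean to replicate 2 was not particular to channel genes. Of the 755 genes whose replicates disagreed, 188 had an H3K27ac peak in replicate 1 and 454 in replicate 2.

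**Figure D1:**
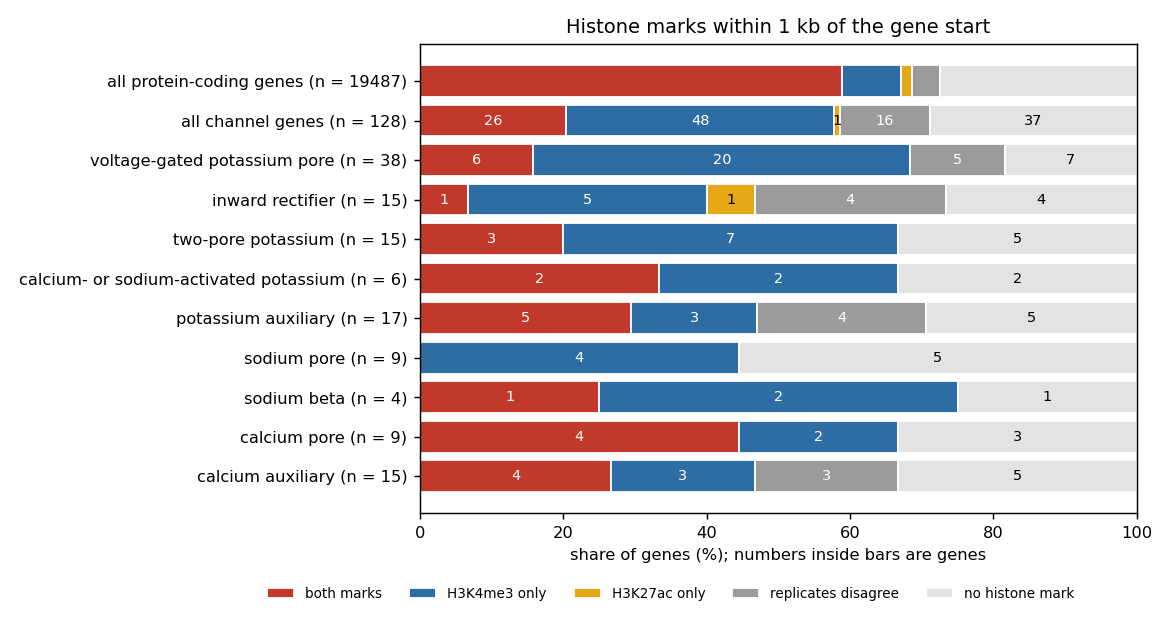
Share of genes in each class of histone marks within 1 kb of the gene start, for all protein-coding genes, for the 128 channel genes and for each channel family; numbers inside the bars are genes. Both marks were found at 20.3% of channel gene starts and 58.9% of all starts, and no sodium channel pore gene had both.

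The label of the cells was checked at marker genes, and 16 of 16 fibroblast markers (COL1A1, VIM, PDGFRA, THY1 and others) had both marks at the start. Of markers of other cells, 2 of 7 neuron and glia genes had both marks (SNAP25 and SLC17A7), 1 of 7 striated muscle genes (TNNI3), 1 of 4 blood genes (CD14), 0 of 4 endothelial and 0 of 4 epithelial genes. Of the other neuron and glia genes, SYT1, STMN2 and GAD1 had H3K4me3 only, and RBFOX3 and GFAP had no histone peak at the start. H3K4me3 only was also found at all 4 epithelial genes, 1 endothelial gene and 1 striated muscle gene. The striated muscle, endothelial and blood lists each had 3 genes with no histone mark. Whether cells of these kinds added to the peaks of channel genes was not tested. A weak peak in a cell population may come from few cells or from little of the mark in each, and these cannot be told apart.

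Sodium channel pore genes had no H3K27ac peak within 1 kb of the gene start. Of the 9 analysed, 4 had H3K4me3 only and 5 no histone mark. SCN8A, a main sodium channel of neurons, had an H3K4me3 fold enrichment over control of 39.7 and 16.1 in replicates 1 and 2. SCN9A, known for its role in pain-sensing neurons, had 36.9 and 18.7. SCN7A (7.81 and 7.36) and SCN11A (4.71 and 4.61) had much weaker peaks, and none of the 4 had an H3K27ac peak at the start in either replicate. The folds of replicate 2 were lower for most H3K4me3 peaks of the series (median 6.16 against 9.27 in replicate 1), so folds are compared within a replicate. Inside the gene body, H3K27ac peaks called in both replicates were found in SCN9A (4), SCN3A (2), SCN4A (2) and SCN8A (2), the strongest in SCN3A (12.3 and 11.0).

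The sodium channel pore genes with no histone mark at the gene start included SCN1A, SCN3A, SCN4A and SCN10A. For SCN1A, the neuronal channel affected in severe childhood epilepsy, another annotated start 18.6 kb away had H3K4me3 of 32.1 and 22.6, so that the gene falls to H3K4me3 only when all its starts are used. SCN10A, a channel of sensory neurons, had its nearest H3K4me3 summit 24.4 and 22.0 kb upstream of its annotated start (fold 6.79 and 4.16). SCN4A, the channel of skeletal muscle, and SCN3A had CTCF and no histone mark at the start, with folds of 36.0 and 36.9 in SCN4A and of 23.6 and 33.6 in SCN3A.

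Among the sodium channel beta subunit genes, SCN3B (31.1 and 15.0) and SCN4B (25.5 and 15.1) had H3K4me3 only, and SCN2B had no histone mark at its gene start. SCN4B showed both marks at another start 7.73 kb away (H3K27ac 5.60 and 5.57), and SCN2B H3K4me3 at one 4.10 kb away (11.4 and 11.0).

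Calcium channel pore genes differed from gene to gene. Both marks were found at CACNA1A, CACNA1C, CACNA1D and CACNA1F, H3K4me3 only at CACNA1E and CACNA1H, and no histone mark at CACNA1G, CACNA1I and CACNA1S. CACNA1C, the L-type channel of heart and smooth muscle, had H3K4me3 of 56.7 and 31.4 and H3K27ac of 17.9 and 16.8. CACNA1D, the L-type channel of pacemaker and endocrine cells, had H3K27ac of 7.52 and 8.53. CACNA1A, the P/Q-type channel of nerve terminals, was weaker in H3K27ac, at 4.28 and 3.17. CACNA1S, the L-type channel of skeletal muscle, had its nearest H3K4me3 summit 2.08 and 1.78 kb upstream of its annotated start. Its model begins with the first coding base, so a start missing from the model cannot be told from a start without marks. The annotated start of another gene, ASCL5, lies 2190 bases from that of CACNA1S, so these H3K4me3 peaks cannot be assigned to 1 gene.

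Of the calcium channel auxiliary genes, CACNA2D1, CACNA2D3, CACNB1 and CACNG6 had both marks. CACNA2D1 encodes the alpha-2-delta subunit that binds gabapentin, and its H3K27ac of 17.5 and 23.3 was the third highest mean among channel genes. CACNB1, the beta subunit of skeletal muscle channels, had the highest H3K4me3 of the 26 genes in replicate 1 (73.3, with 29.4 in replicate 2), and H3K27ac of 9.31 and 18.7. CACNB2 had no histone mark at its gene start, but both marks at a start 99.9 kb away (H3K4me3 51.8 and 17.2, H3K27ac 5.07 and 6.79). CACNB3 had H3K27ac in 1 replicate at its gene start and in both 2.92 kb away (14.0 and 19.8). Of the gamma subunits, CACNG2, CACNG4 and CACNG5 had H3K4me3 only, and CACNG1 and CACNG3 had no histone mark. CACNA2D4 and CACNB4 had none either, and H3K27ac was called in replicate 2 alone at CACNA2D2 (5.98) and CACNG7 (3.17).

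Voltage-gated potassium channel pore genes were the largest family, and 20 of 38 had H3K4me3 only. Both marks were found at 6 (among them KCND1, KCNG1, KCNH1, KCNH8 and KCNQ5), no histone mark at 7 (among them KCNA2, KCNA10, KCNC2, KCNS1, KCNS2 and KCNV2), and the replicates disagreed at 5 (KCNA6, KCNA7, KCNG3, KCNH3 and KCNS3). KCND2, an A-type channel of dendrites, had H3K4me3 of 51.1 and 26.4, the highest mean of the 48 genes without H3K27ac. KCNC4 had 49.4 and 17.7, KCNA1 had 39.1 and 23.4, and KCNB2 had 37.8 and 23.2. These 4 are among the strongest of the class. Over all 48 channel genes with H3K4me3 only the median H3K4me3 fold was 21.7 and 11.6, below that of the 26 with both marks (42.5 and 20.8). Other genes of the family with H3K4me3 only were KCNA3, KCNA4, KCNA5, KCNC1, KCND3, KCNF1, KCNG2, KCNG4, KCNH2, KCNH5, KCNH6, KCNH7, KCNQ3 and KCNV1. Their H3K4me3 ran in replicate 1 from 4.10 at KCNG4 to 41.0 at KCNA3, and KCNV1 (11.5 and 8.38) had it with 0 CpGs in its annotated promoter.

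KCNQ5, a subunit of the M-current, had the strongest H3K27ac of the 6 potassium pore genes with both marks, at 12.8 and 10.9. KCNH8, at 2.89 and 2.37, had the weakest H3K27ac of all 26 genes. KCNH2, which carries the rapid repolarising current of the heart, had weak H3K4me3 at its gene start (6.83 and 6.16), whereas a start 26.3 kb away had both marks (H3K4me3 18.6 and 8.88, H3K27ac 5.88 and 7.65). KCNA2 and KCNC2 had no histone mark at the gene start but H3K4me3 at another start, of 39.7 and 23.7 in KCNA2 and of 36.7 and 22.9 in KCNC2.

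Among the inward rectifiers, which hold the resting potential, 1 of 15 had both marks at the gene start (KCNJ4) and 5 had H3K4me3 only (KCNJ3, KCNJ5, KCNJ6, KCNJ10 and KCNJ14). There was no histone mark at KCNJ1, KCNJ2, KCNJ9 and KCNJ16, and the replicates disagreed at KCNJ8, KCNJ11, KCNJ12 and KCNJ15. KCNJ15 had both marks at a start 27.1 kb away (H3K4me3 6.54 and 5.11, H3K27ac 11.9 and 12.4). KCNJ2, the classical rectifier of heart and muscle, had no histone mark at its gene start, but a start 18.4 kb away had strong peaks of both (H3K4me3 52.2 and 24.3, H3K27ac 17.0 and 15.2). KCNJ8 and KCNJ11, the pores of ATP-sensitive potassium channels, had H3K27ac in 1 replicate each, at 4.21 and 3.11. Their H3K4me3 was high, at 62.0 and 39.8 in KCNJ8 and 36.5 and 22.7 in KCNJ11. KCNJ13 was the single gene with H3K27ac only, and its peaks were weak (3.51 and 3.59).

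Of the tandem-pore potassium channel genes (KCNK), which leak potassium at rest, 3 of 15 had both marks (KCNK1, KCNK6 and KCNK12), 7 had H3K4me3 only (KCNK3, KCNK4, KCNK5, KCNK9, KCNK10, KCNK13 and KCNK15) and 5 had none (KCNK2, KCNK7, KCNK16, KCNK17 and KCNK18). KCNK12 had H3K27ac of 11.0 and 12.8 and KCNK1 of 10.2 and 12.1. KCNK2, the mechanosensitive TREK-1 channel, had none at its gene start and both marks at a start 71.3 kb away (H3K4me3 26.4 and 13.7, H3K27ac 3.14 and 3.67).

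Of the potassium channel genes grouped by symbol as calcium- or sodium-activated, KCNMA1 and KCNN4 had both marks at the gene start, and KCNN1 and KCNN2 had H3K4me3 only. KCNN3 and KCNU1 had no histone mark at the gene start. KCNN2 showed both marks at another start 289.6 kb away (H3K4me3 61.9 and 24.9, H3K27ac 3.29 and 2.86). KCNN3 showed both at one 18.5 kb away (H3K4me3 13.5 and 10.7, H3K27ac 2.55 and 5.24). Grouping by symbol does not say what opens a channel, that of KCNU1 included. KCNMA1, the pore of the large-conductance BK channel, had H3K4me3 of 69.6 and 36.6 and H3K27ac of 8.67 and 13.5. KCNN4, the intermediate-conductance channel known from proliferating fibroblasts and lymphocytes, had much weaker H3K4me3 than KCNMA1 (5.30 and 4.79). Its H3K27ac of 8.36 and 12.3 was near that of KCNMA1. The auxiliary subunits of BK channels ranged over the classes, with both marks at KCNMB3, H3K4me3 only at KCNMB2, H3K27ac in replicate 2 alone at KCNMB4 and no histone mark at KCNMB1. Among the other auxiliary genes, both marks were found at KCNE1, KCNE3, KCNAB2 and KCNAB3, H3K4me3 only at KCNE5 and KCNIP4, and no histone mark at KCNE2, KCNIP1, KCNIP2 and KCNRG. The replicates disagreed at KCNAB1, KCNIP3 and KCNE4. KCNE4, which inhibits several voltage-gated potassium channels, had no H3K4me3 within 1 kb of its annotated start, but 4319 and 4760 bases of it within 5 kb.

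The highest H3K27ac of any channel gene start was at KCNAB2 (25.7 and 21.1) and KCNMB3 (21.3 and 23.3), both auxiliary subunits of potassium channels. These starts lie 129 bases from the annotated start of a record named NPHP4 and 190 bases from that of ZNF639, so their peaks cannot be assigned to 1 gene of the pair. Another gene start lay within 1 kb of 5 of the 26 starts with both marks, 2 of 48 with H3K4me3 only and 2 of 37 with no histone mark. The share over all protein-coding genes was not counted. CACNA1F (774 bases) and KCNG1 (258 bases) are among the 5, so the same limit holds for their peaks. Even with the genes near another start included, H3K27ac was weaker at channel genes than elsewhere. Its median fold over the 26 starts was 7.80 and 8.69, beside 16.8 and 19.95 over all protein-coding genes with both marks. For H3K4me3 only, the medians of 21.7 and 11.6 in channel genes stood beside 20.6 and 11.4 for all genes of that class.

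**Figure D2:**
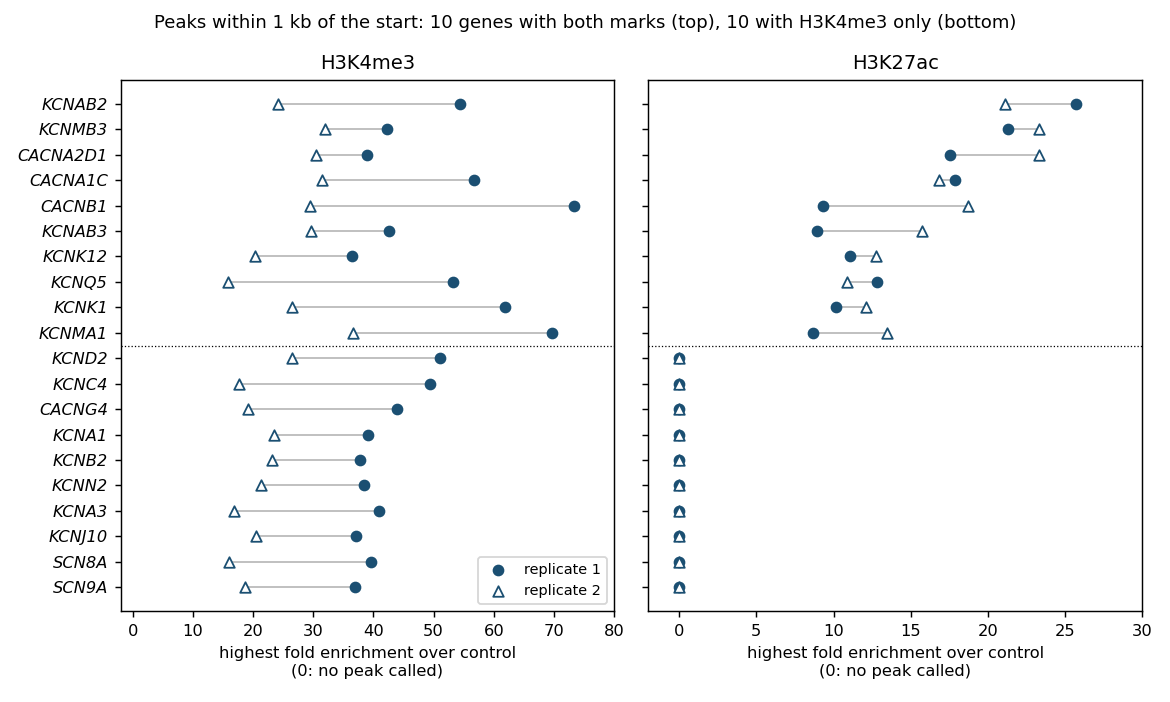
Highest fold enrichment over control of the peaks within 1 kb of the gene start, per replicate (circles replicate 1, triangles replicate 2), for the 10 channel genes with both marks and the highest H3K27ac and the 10 with H3K4me3 only and the highest H3K4me3; 0 stands for no peak. KCND2 (51.1 and 26.4) reaches the H3K4me3 of KCNQ5 (53.3 and 15.8) with no H3K27ac peak.

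Across channel gene starts with peaks in both replicates, Spearman's rho between the replicates' folds was 0.879 for H3K4me3 (87 genes), 0.845 for H3K27ac (27 genes) and 0.901 for CTCF (26 genes). Between H3K4me3 and H3K27ac of the same replicate it was 0.263 over 28 genes and 0.357 over 37. The replicates of a mark share the control, and genes are not independent replicates, so these are descriptions. They show that the order of genes within a mark was similar in the replicates, and that the order by H3K4me3 differed from that by H3K27ac.

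The CpG content of the promoter was higher, by median, in the 2 classes with H3K4me3 than in genes with no histone mark, as it was over the genome. The median number of CpGs in the 300 bases was 24 in channel genes with both marks, 31 in those with H3K4me3 only and 6 in those with no histone mark, beside 23, 21 and 4 in all protein-coding genes of these classes. It did not separate the first 2 classes. Of the 40 channel genes with 30 or more CpGs, 25 had H3K4me3 only (62.5%, beside 12.0% of all genes in that range) and 11 had both marks (27.5%, beside 83.8%). Of the 52 with 0 to 9 CpGs, 31 had no histone mark (59.6%, beside 61.6%). In this range 8 had H3K4me3 only (15.4%, beside 5.68%) and 6 both marks (11.5%, beside 24.2%), so few CpGs did not exclude H3K4me3.

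**Figure D3:**
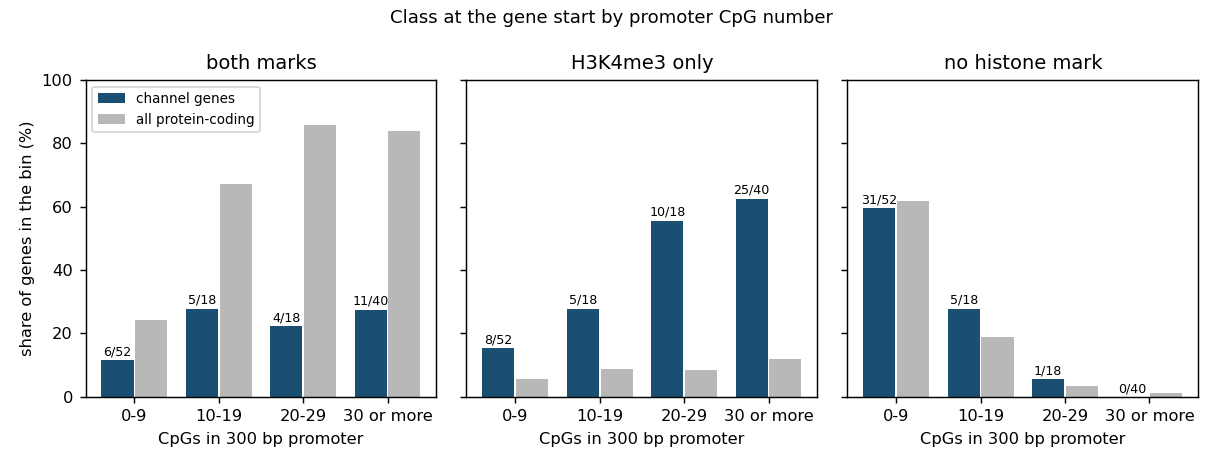
Share of genes with both marks, H3K4me3 only and no histone mark by the number of CpGs in the 300-base promoter, for channel genes (dark) and all protein-coding genes (grey); labels give channel genes of the class over those in the bin. In every bin a smaller share of channel genes than of all genes had both marks, while the shares with no histone mark in the lowest bin were alike at 59.6% and 61.6%.

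Channel genes are long, with a median record of 46.2 kb beside 20.7 kb, and H3K4me3 only was found at 32.6% to 44% of channel genes in each of 4 length ranges, with no steady trend. Of the 25 channel genes of 200 kb or more, 11 had H3K4me3 only (44%, beside 20.3% of all genes of that length), and of the 21 under 10 kb, 9 had it (42.9%, beside 7.11%).

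The RE1 element, to which the repressor REST binds at neuronal genes in non-neuronal cells, was searched as AGCACC, any 2 bases and GGACAG on both strands within 1 kb of the start. It was present at 3 of the 128 channel genes (2.34%, beside 0.421% of all genes). SCN3B (chr9:50531476-50531509, plus strand), a beta subunit gene with H3K4me3 only, holds 1 of them. Its match is given 5' to 3' with 10 bases on either side and the searched letters in capitals.
SCN3B: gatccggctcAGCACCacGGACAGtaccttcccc
In channel genes the match lay at 2 of 48 starts with H3K4me3 only, 0 of 26 with both marks and 1 of 37 with no histone mark. Over all genes it was found at 2.49% of starts with H3K4me3 only, 0.148% with both marks and 0.336% with no histone mark. The gene of REST itself had both marks, with H3K4me3 of 58.9 and 23.1 and H3K27ac of 16.9 and 19.9. A match is no evidence of binding, and other forms of the element were not searched.

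CTCF lay at the start of 26 channel genes in both replicates (20.3%, beside 17.9% of all genes), and at 26 and 33 in single replicates. KCNA2 had the highest mean of the replicates, at 54.5 and 55.0, and no histone mark at that start. KCNH1 (39.2 and 66.2), KCNMB3 (43.5 and 43.3), CACNB3 (31.7 and 42.9) and SCN4A (36.0 and 36.9) followed. By family, CTCF lay at the start of 10 of 38 voltage-gated potassium pore genes, 5 of 15 tandem-pore, 4 of 9 sodium pore and 1 of 9 calcium pore genes.

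The bases within 50 of the CTCF summit in replicate 1 are shown for KCNA2 (chr4:109535640-109535740), the strongest site. They are also shown for SCN11A (chr13:23692308-23692408), where CTCF lay beside weak H3K4me3 (4.71 and 4.61). Both are given as the minus strand, with matches to AGNNGGCA, a short core of the CTCF motif, in capitals. The capitals mark these searched letters only and do not locate the bases that CTCF bound.
KCNA2: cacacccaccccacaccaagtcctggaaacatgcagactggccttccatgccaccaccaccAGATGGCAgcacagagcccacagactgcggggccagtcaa
SCN11A: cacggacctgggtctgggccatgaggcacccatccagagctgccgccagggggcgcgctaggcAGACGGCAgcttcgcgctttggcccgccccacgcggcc
This core was found on either strand at 5 of the 27 CTCF peaks at channel gene starts (18.5%), at 29.3% of all CTCF peaks and at 6.01% of windows of the same length 1 kb from their summits. So short a core misses many sites, and no match says only that these letters are not in the window.

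Within gene bodies, H3K27ac was sparse in channel genes, while CTCF was about as frequent as in other genes. Bodies were taken as the gene record without the 1 kb on either side of each annotated transcript start. There were 1.70 ± 0.174 (SD, n = 2) H3K27ac summits per 100 kb of channel gene body, beside 3.64 ± 0.271 in all protein-coding genes. For H3K4me3 the rates were 0.926 ± 0.147 and 1.35 ± 0.240, and for CTCF 1.66 ± 0.0805 and 1.74 ± 0.118. The replicate values of the 2 gene sets did not overlap for H3K27ac and H3K4me3, whereas those of CTCF did. Each SD is between 2 libraries over the same genes, so it does not measure the spread from gene to gene. Among genes of at least 50 kb the H3K27ac rates were 1.65 ± 0.164 and 3.46 ± 0.214.

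**Figure D4:**
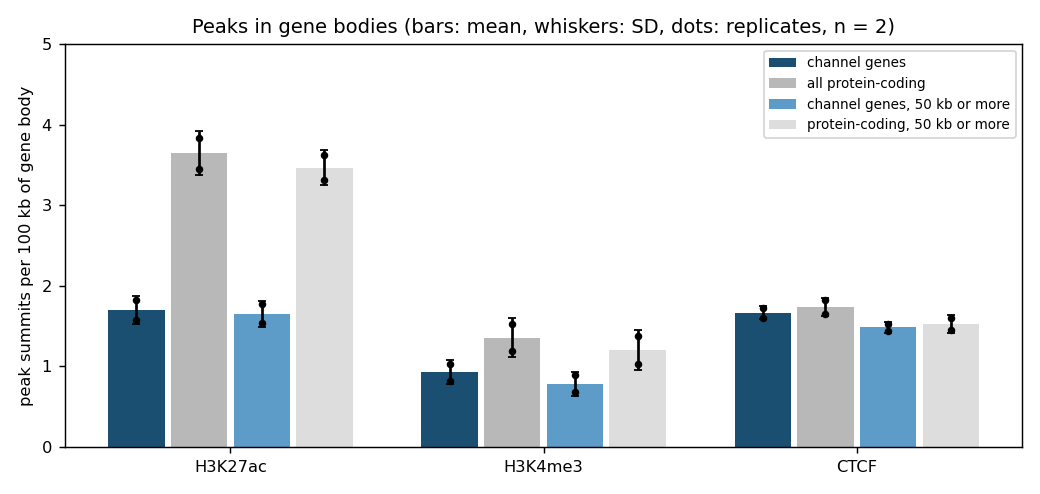
Peak summits per 100 kb of gene body for channel genes and all protein-coding genes, over all lengths and in records of 50 kb or more; bars are means, whiskers SD and dots the 2 replicates. H3K27ac was at 1.70 in channel genes and 3.64 in all genes, and CTCF at 1.66 and 1.74, with overlapping replicate values. The SD is between libraries and not between genes.

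Summed over genes, the body rate differed between the classes of the start. Channel genes with both marks had 2.94 ± 0.314 H3K27ac summits per 100 kb and those with H3K4me3 only 0.816 ± 0.0529, beside 4.86 ± 0.369 and 0.934 ± 0.0527 in all genes of these classes. In 67 channel genes (52.3%, beside 50.8% of all genes) the body held no H3K27ac summit in either replicate, and in 52 (40.6%, beside 41.3%) it held 1 or more in both. These shares were alike although channel genes are longer.

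Together 6 long genes held 120 of the 250 summits in replicate 1 (48%) and 135 of 289 in replicate 2 (46.7%). KCNMA1 had 27 and 32 H3K27ac summits in its body, CACNA1C had 23 and 27, KCNQ5 23 and 24, CACNA2D3 19 and 21, KCNAB1 15 and 15, and KCNIP4 13 and 16. KCNAB1, a cytoplasmic beta subunit of potassium channels, had them although its replicates disagreed on both histone marks at its start. KCNIP4, a calcium-sensing partner of A-type channels, had H3K4me3 only at its gene start and both marks at a start 610.6 kb away (H3K27ac 10.6 and 15.0). The other end of the scale was KCNB2, with 0 and 0 in a record of 428.5 kb, CACNA1E with 0 and 0 in 491.0 kb, and KCNQ3 with 0 and 0 in 308.7 kb, all with H3K4me3 only at the start. KCNH8 also had 0 and 0, in 429.1 kb, with both marks at its start.

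In all, 223 H3K27ac peaks in the bodies of 53 channel genes were called in both replicates. Of these, 88 (39.5%) overlapped an H3K4me3 peak and 34 (15.2%) a CTCF peak of either replicate, beside 37.2% and 13.7% of such peaks in all protein-coding genes. KCNMA1 held 25, CACNA1C 22 and KCNQ5 21. The strongest of CACNA1C lay 102.6 kb into the gene at chr5:69117601-69120436 (fold 20.1 and 24.9), above the H3K27ac of its start (17.9 and 16.8). That of KCNAB1 lay 387.7 kb from the start at chr13:96366041-96375041 and was the strongest of these 3 examples, with folds of 29.1 and 31.7, and that of KCNMA1 lay 241.2 kb from the start (17.7 and 22.2).

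**Figure D5:**
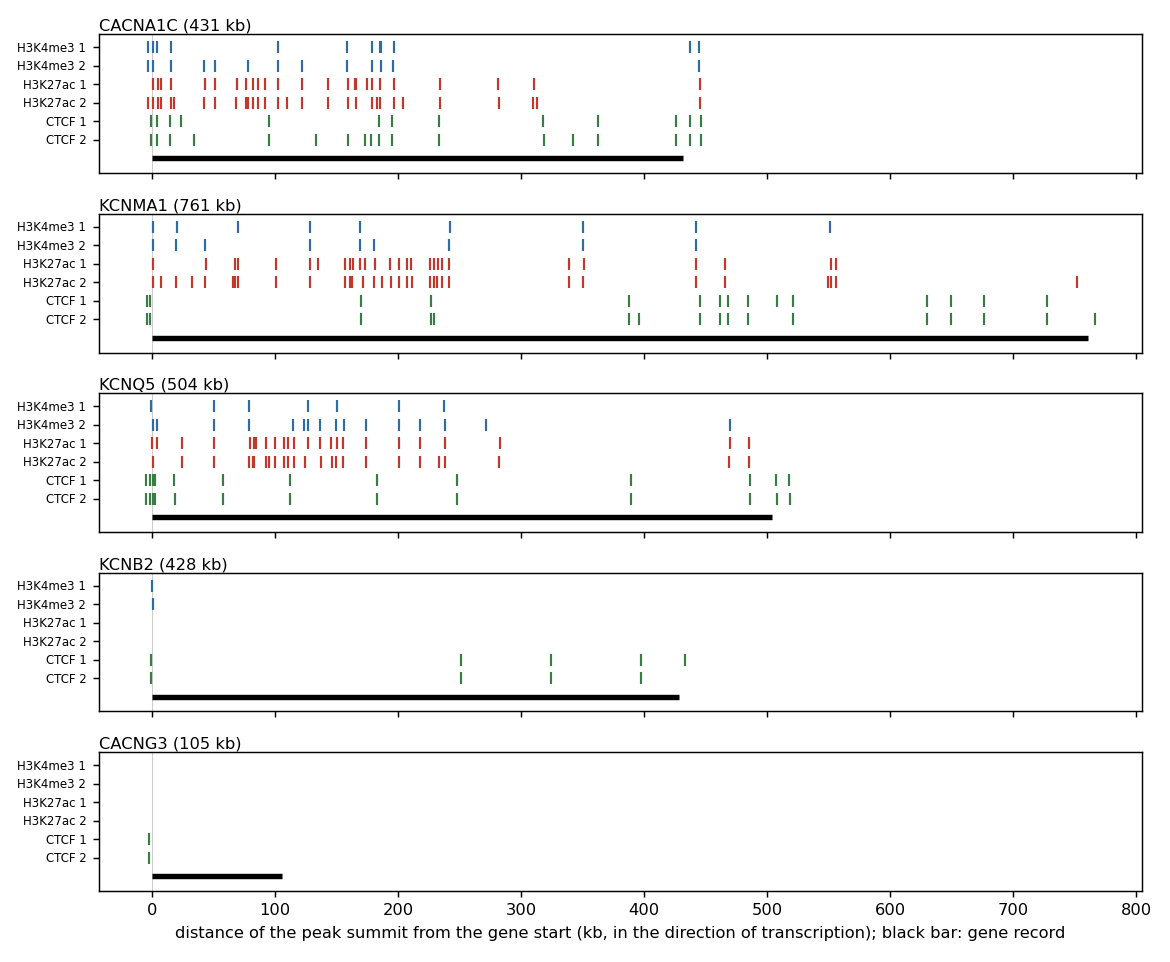
Positions of peak summits along 5 channel genes, in kb from the annotated start in the direction of transcription, by mark and replicate (1 and 2); the black bar is the gene record. CACNA1C, KCNMA1 and KCNQ5 hold 22, 25 and 21 H3K27ac peaks shared by the replicates in their bodies, KCNB2 holds none, and CACNG3 shows no histone peak.

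At 11 of the 128 channel genes (8.59%, beside 18.7% of all genes) no histone peak was found at any annotated start and no summit in the body, in any of the 4 histone libraries. They included CACNA1S, CACNB4, CACNG1, CACNG3, KCNA10, KCNE2, KCNK16, KCNK18, KCNMB1 and KCNRG. In CACNA1S, CACNB4 and KCNA10 the model begins with the first coding base. That was so for 6 of the 37 channel genes with no mark at the gene start (16.2%, beside 22.0% of all genes of that class) and for 1 of the 26 with both marks. Of the 37, 9 had an H3K4me3 summit within 5 kb of the annotated start in both replicates (24.3%, beside 12.9% of all genes of that class).

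Several channel genes form clusters, and in these neighbours of the same class and of different classes were both found. SCN1A, SCN9A and SCN7A (chr15:72529866-73026656) had 2 and 6 H3K4me3 and 4 and 4 H3K27ac summits over 496.8 kb. KCNA3, KCNA2 and KCNA10 (chr4:109495220-109647699) had 6 and 7 H3K4me3 summits and 1 and 2 of H3K27ac over 152.5 kb. The cluster of CACNA2D4 and CACNA1C had 29 and 34 H3K27ac summits over 643.3 kb. The clusters differ in length, so these counts are not rates.

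Of the other genes that work with these channels, 44 of the 46 listed were found, and 28 had both marks (63.6%, near the 58.9% of all genes), among them the pacemaker channel gene HCN3, the calcium pump gene ATP2A2 and the store-operated calcium entry genes ORAI1 and STIM1. H3K4me3 only was found at 6 (HCN2, HCN4, FGF12, DPP10, RYR1 and RYR2), no histone mark at 8, and the replicates disagreed at 2. HCN3 had H3K27ac of 10.1 and 25.3, while HCN4, the main pacemaker channel of the heart, had H3K4me3 of 41.5 and 17.8 and no H3K27ac.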

How the data were processed

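PEFs were profiled by ChIP-seq for both histone marks and CTCF, with 2 replicates per target, and the sample labels gave mark and replicate number. The authors aligned reads with Bowtie2 and called narrow peaks with MACS2 in each library against an input control. Sscrofa11.1 is the build named in the submitters' processing notes, and no tool version is given in the sources used here. The deposited lists give for each peak a score, a fold enrichment (a ratio over control), and p-values and q-values as −log10. The score was not used. Peaks with q-values up to 0.0432 to 0.0499, depending on the library, are listed although 0.01 is the stated limit, and all were kept.

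Peaks were matched to RefSeq gene records with Python 3.11.15. A mark was present at a start where a peak of each replicate overlapped the 1 kb on either side by at least 1 bp, and absent where neither replicate had one. Body peaks were counted by summit. Where several peaks lay at a start, the highest fold was taken. The steps were checked on simulated peaks. Named genes were the 10 highest of each class by fold, the 10 with most H3K27ac summits in the body, the 10 with the strongest CTCF, the longest genes with no mark and a list fixed for role; promoters shown were the strongest of a class, or the longest genes without peaks whose models do not begin with a coding base, a limit set after the values were seen. The members, lists and rules were chosen with earlier results of these data known. The depth of the libraries is unknown from peak lists, so no interval was computed, and a missing peak is not proof that the mark is absent. The 2 input samples were not analysed here, and several genes that the naming rule covers are counted or left out but not reported here by name. Other settings tried were a minimum −log10 q-value (2 or 5), 5 kb around the start, all annotated starts, summits in place of overlaps, longer records and single replicates.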

Additional observations from a re-analysis of the deposited data

How the results depend on the processing

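Of 56 values recomputed under another setting, 47 stayed within the replicate spread or within 1.5 times the reported count. The body rates of single replicates lie within that spread by construction, since it is taken from the same values. The limit for counts is wide. Both marks rose from 26 to 37 with 5 kb around the start (28.9%, beside 64.2% of all genes) and also with all annotated starts (beside 62.1%), and are among the 47. The number of starts with no histone mark fell from 37 to 21 with 5 kb around the start and to 24 with all annotated starts. CTCF rose from 26 to 50 genes with 5 kb (39.1%, beside 35.0% of all genes). Both marks fell from 26 to 15 with the summit in the window (11.7%, beside 41.7%). With a −log10 q-value of at least 5, body rates per 100 kb were 1.22 for H3K27ac and 0.686 for H3K4me3, and 1.27 for H3K4me3 when peaks were counted by 1 bp of overlap. CTCF was at 1.57 without 5 kb around each start and 1.48 in records of at least 50 kb. The cause of these shifts was not tested beyond what the settings themselves include. With 1 replicate at a time, the counts were 87 to 89 (H3K4me3), 28 to 37 (both marks), 52 to 59 (H3K4me3 only), 37 to 39 (no histone mark) and 26 to 33 (CTCF), and the body rates 1.58 to 1.83, 0.822 to 1.03 and 1.61 to 1.72 for H3K27ac, H3K4me3 and CTCF. Under every setting the share of channel genes with H3K4me3 only, 34.4% to 46.1%, was above that of all genes, 7.99% to 10.2%, and the share with both marks, 11.7% to 28.9%, was below 41.7% to 64.2%. Body rates of H3K27ac stayed at 1.22 to 1.83 beside 2.37 to 4.48. No paired analysis was possible because no test was made. Peak lists do not show signal under the calling threshold, so weak H3K27ac and none cannot be told apart.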
